A study of Rattus norvegicus with 12 samples.

Results

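The genes described here take up, carry, export and sense bile acids. They were chosen by name, as the gene spots of the array that carry 1 of 10 names: Nr1h4, Nr1i2, Nr1i3, Abcc3, Abcc2, Slc51a, Slc51b, Slc10a2, Fabp6 and Fgf19. All 10 were on the array, with 12 probes between them, out of 30367 distinct gene probes. Only 5 of the 10 (Nr1h4, Nr1i2, Abcc3, Slc51a and Slc51b) were bright enough on at least 6 arrays to enter the comparison of 10451 genes. The levels were measured in total RNA of male Wistar rats, labelled as colonic epithelium, that weighed 180 to 200 g and ate a normal protein or a high protein diet for 6 weeks. Each diet had 6 arrays, named here NP1 to NP6 and HP1 to HP6 after the diet and the replicate number in the labels. The labels give no age, no protein content of either diet and no stretch of the colon. They also do not say whether the replicates came from separate animals, so the p-values measure the spread between these samples.

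Bile acids are made in the liver, conjugated, released into the gut and mostly taken back up in the ileum. There Slc10a2 (ASBT) brings them in across the apical membrane, Fabp6 binds them in the cytosol, and the paired subunits Slc51a and Slc51b (OSTα and OSTβ) let them out at the basolateral side. The bile acid receptor FXR, encoded by Nr1h4, is a nuclear receptor that switches on Fabp6, both Slc51 genes and the ileal hormone Fgf19 (called Fgf15 in rodents), and the hormone lowers bile acid synthesis in the liver. In the colon, where bacteria turn primary into secondary bile acids, uptake is weaker, and the receptors PXR (Nr1i2) and CAR (Nr1i3) and the export pumps MRP3 (Abcc3) and MRP2 (Abcc2) also handle drugs and other foreign compounds.

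Slc51a and Slc51b moved together over some of the arrays described below but not over all, and Fabp6 was bright on few. For this reason the sequences before the starts of these 3 genes are shown. They come from RefSeq (GRCr8 build), whose promoter table held 7 of the 10 genes, and each is read in the direction of its gene over the 250 bases before the annotated start. Capitals mark a motif found by search on both strands: the nuclear receptor hexamers AGGTCA and GGGTCA, or an inverted pair of hexamers with 1 base between them, written AGGTNANTNACCT. The Slc51a sequence lies on the plus strand at chr11:81803891-81804140, the Slc51b sequence on the minus strand at chr8:74835110-74835359 and the Fabp6 sequence on the minus strand at chr10:28569728-28569977.
Slc51a: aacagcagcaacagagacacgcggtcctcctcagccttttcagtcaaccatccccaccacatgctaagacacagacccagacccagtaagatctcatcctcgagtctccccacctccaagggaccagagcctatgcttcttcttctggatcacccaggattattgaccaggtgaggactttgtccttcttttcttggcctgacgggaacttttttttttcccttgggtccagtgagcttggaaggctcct
Slc51b: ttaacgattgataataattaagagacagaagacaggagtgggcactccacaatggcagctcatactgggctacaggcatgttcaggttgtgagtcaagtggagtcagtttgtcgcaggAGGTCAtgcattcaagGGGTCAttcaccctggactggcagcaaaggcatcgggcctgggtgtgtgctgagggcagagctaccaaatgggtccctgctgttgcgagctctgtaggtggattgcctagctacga
Fabp6: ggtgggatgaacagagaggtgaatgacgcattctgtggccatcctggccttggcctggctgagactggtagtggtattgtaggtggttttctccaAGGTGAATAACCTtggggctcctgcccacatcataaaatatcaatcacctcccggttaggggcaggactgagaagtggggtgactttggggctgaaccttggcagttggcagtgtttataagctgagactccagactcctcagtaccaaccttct

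Searches ran over the window from 250 bases before to 50 bases after the start. The strict inverted pair AGGTCANTGACCT, which FXR is known to bind together with its partner RXR, was in 0.0269% of 33469 promoter windows and in none of the 7 matched genes. The looser form AGGTNANTNACCT contains the strict one and was chosen after the sequences had been seen. It was in 0.0478% of the windows, and among the 7 genes only Fabp6 held it, as AGGTGAATAACCT. The single hexamer AGGTCA was in 16.2% of all windows and in those of Abcc2 and Slc51b, and GGGTCA was in 13.8% and in that of Slc51b. Slc51a held none of the 4. A match describes letters in the window, not a site in use.

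All levels below are normalized log2 intensities, so a difference of 1 is a doubling, and levels of different probes cannot be set against each other. A spot counts as measured where the deposited flags call it good. Between 42.67% and 55.86% of gene spots were flagged good on an array, fewest on NP3 and most on HP3. All 13 colon epithelium markers entered the comparison, and their mean level lay between 11.29 and 12.11 on every array. Smooth muscle markers were present too: 8 of 9 were tested, with mean levels of 10.24 on HP4 and 10.87 to 11.58 on the other arrays. HP4 also gave the highest readings of Slc51a, Slc51b, Nr1h4 and Abcc3 described below, and the part of muscle RNA in them was not tested.

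The arrays also differed in 2 homeobox genes that mark position along the gut. Hoxb13, known from the most distal colon, measured 11.996 to 12.56 on 6 arrays (NP1, NP2, HP1, HP2, HP5 and HP6) and 5.83 to 9.32 on the other 6, and on NP4, NP6 and HP3 its spot was not flagged good. Hoxb6 was between 10.82 and 10.95 on 3 of those other arrays (NP6, HP3 and HP4) and at most 7.49 elsewhere, and on NP2 and NP3 its spot was not flagged good. The slopes on both genes below thus include arrays where the spot was not flagged good. The 6 arrays with Hoxb13 above 11 held 4 of the high protein and 2 of the normal protein arrays, so diet and Hoxb13 were not balanced. The marks at 11 and 10 were set after these levels had been seen, and the arrays on either side are not groups of the study.

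The apical transporters and the hormone were not well above background on any array. Slc10a2, the apical transporter, was flagged good on none of the 12 arrays, and its probe read 5.76 to 6.19. Fgf19 was also flagged good on none, at 5.74 to 6.05. Abcc2, the apical pump, is spotted 10 times on the array. At most 0.1 of its spots were flagged good on any array, and its mean read 5.87 to 5.99. On each array the first percentile of good probes lay between 6.37 and 7.02, above all of these readings. These 3 genes were not well above background and failed the filter. In a limma fit over 21914 genes without the filter, their diet differences were 0.01 for Abcc2, 0.02 for Slc10a2 and 0.10 for Fgf19, with adjusted p of 0.961, 0.965 and 0.856.

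Nr1i3, the receptor CAR, had 2 probes and was not above background in most samples. Its first probe was flagged good on HP4, at 6.75, and on HP6, at 6.83, and its second on no array. No normal protein array had a good spot for it. The first probe read 6.08 to 6.54 on normal protein and 6.05 to 6.83 on high protein, and these ranges overlap. Its diet difference in that fit was 0.21 ± 0.137 (SE), with a limma adjusted p of 0.856.

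Fabp6, the ileal bile acid binding protein, was measured on 4 arrays. It read 8.81 on NP6, 7.27 on HP4, 6.94 on HP3 and 6.68 on HP5. The first 3 of these arrays are the 3 with high Hoxb6, and HP5 has high Hoxb13. On the other 8 arrays the probe read 6.15 to 6.40 and was not flagged good. Fabp6 was good on 1 normal protein and 3 high protein arrays, and the diet ranges overlap, at 6.15 to 8.81 and 6.24 to 7.27. It failed the filter. In the limma fit without the filter, its diet difference was -0.07 ± 0.420 (SE; adjusted p = 0.980) and its Hoxb6 slope was 0.45 ± 0.105 per log2 unit (adjusted p = 0.396).

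Small intestinal and liver markers bear on these low genes. Of the 13 small intestinal markers, Fabp2 and Rbp2 were flagged good on 12 arrays, Apoa1 on 10, Anpep on 7, Apoc3 on 4, and Alpi and Slc15a1 on 3 each. Apoa4, Si, Lct, Mttp, Apob and Slc5a1 were flagged good on no array. The first 4 were tested, with a mean level of 7.72 to 8.92 on normal protein and 7.52 to 8.40 on high protein. On NP6, the array with the highest Fabp6, the liver gene Alb read 9.51 against 5.83 to 6.35 on the other 11. Ttr, also a liver gene, was flagged good on 2 arrays and read 7.46 on NP6 and 7.37 on NP2. The other 4 liver markers, Apoh, Fgb, Serpina1 and Cyp7a1, were flagged good on none. Their part in the Fabp6 reading was not tested.

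**Figure D1:**
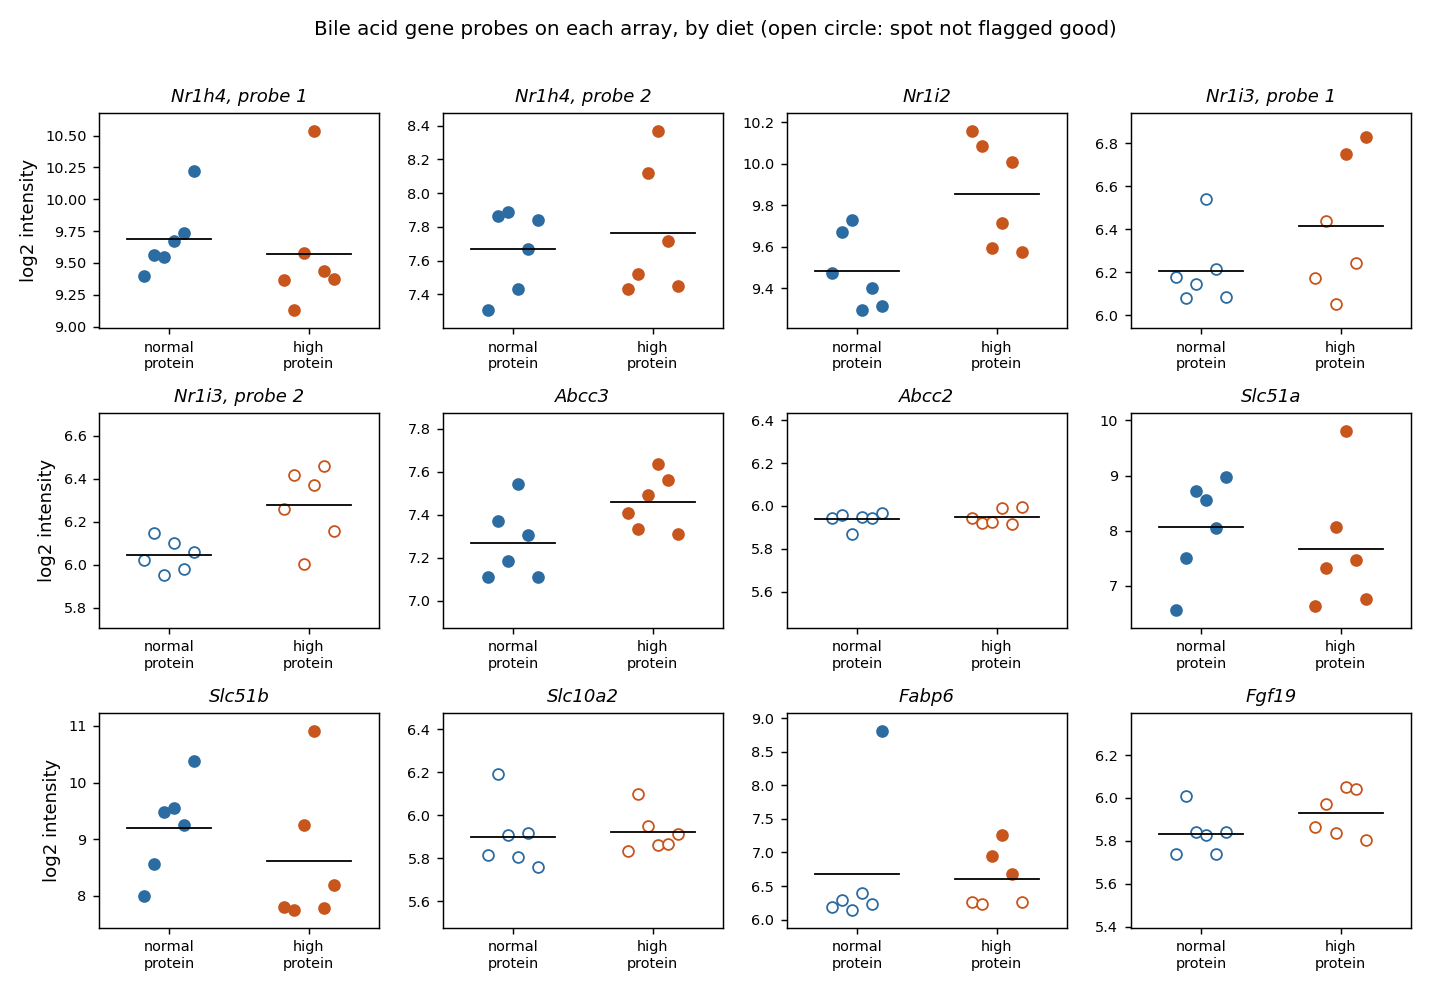
Normalized log2 intensity (vertical axis, a separate scale in each panel that does not start at 0) of the 12 probes on the 6 normal protein (blue) and 6 high protein (orange) arrays. Each point is 1 array, open where its spot was not flagged good, and the line is the mean of the diet; Abcc2, Slc10a2, Fgf19 and the second Nr1i3 probe show no filled point.

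Slc51a and Slc51b, the subunits of the basolateral exporter, were flagged good on all 12 arrays and varied more than any other member that was tested. Slc51a read from 6.56 to 8.98 on normal protein, with a median of 8.30, and from 6.63 to 9.81 on high protein, with a median of 7.40. Slc51b read from 8.004 to 10.38 on normal protein, with a median of 9.36, and from 7.75 to 10.91 on high protein, with a median of 7.996. The diets overlapped widely in both genes, and HP4 gave the highest reading of each.

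High and low readings of both subunits sorted with Hoxb13. Slc51a measured 6.56 on NP1, 7.51 on NP2, 6.63 on HP1, 7.33 on HP2, 7.48 on HP5 and 6.76 on HP6, the arrays with high Hoxb13. It measured 8.72 on NP3, 8.56 on NP4, 8.05 on NP5, 8.98 on NP6, 8.07 on HP3 and 9.81 on HP4. The 2 sets of arrays do not overlap, and from this alone they cannot overlap within either diet. Slc51b measured 8.004, 8.57, 7.81, 7.75, 7.78 and 8.19 on the same 6 arrays with high Hoxb13, in the same order. It measured 9.48 on NP3, 9.55 on NP4, 9.25 on NP5, 10.38 on NP6, 9.25 on HP3 and 10.91 on HP4, again with no overlap. Over all genes tested, 1.68% lay wholly lower on the 6 arrays with high Hoxb13 and 1.88% lay wholly higher. Hoxb13 itself is among the latter, since it set the split. Of the 5 tested members, Slc51a and Slc51b were the 2 that lay wholly lower, and none lay wholly higher.

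In a limma fit with diet, Hoxb13 and Hoxb6 together, neither subunit passed the threshold. That fit called 0% of the 10451 genes for a negative Hoxb13 slope and 0.0957% for a positive one, and 3.82% had a negative slope at an unadjusted p under 0.05. Hoxb13 and Hoxb6 were themselves among the 10451 genes. In slope fits over these genes, each is called positive on its own level by construction and is part of the positive share. The Hoxb13 slope was -0.25 ± 0.0999 (SE) for Slc51a and -0.22 ± 0.0836 for Slc51b per log2 unit of Hoxb13, with unadjusted p of 0.0291 and 0.0227 and limma adjusted p of 0.648 and 0.618. The levels of Hoxb13 and Hoxb6 were themselves related over the 12 arrays (r = -0.62, given as a description). With Hoxb13 alone beside diet, the slope was -0.30 ± 0.0646 for Slc51a (limma adjusted p = 0.0246) and -0.32 ± 0.0589 for Slc51b (adjusted p = 0.0103), in a fit that called 1.7% of genes negative and 2.3% positive. Over 23 alternatives the adjusted p ran from 0.0246 to 0.962 for Slc51a and from 0.0103 to 0.952 for Slc51b. With the 3 arrays of high Hoxb6 left out and Hoxb13 alone beside diet, an alternative added after seeing the data, the slopes were -0.27 and -0.23. Neither passed the threshold there, with limma adjusted p of 0.408 and 0.207.

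**Figure D2:**
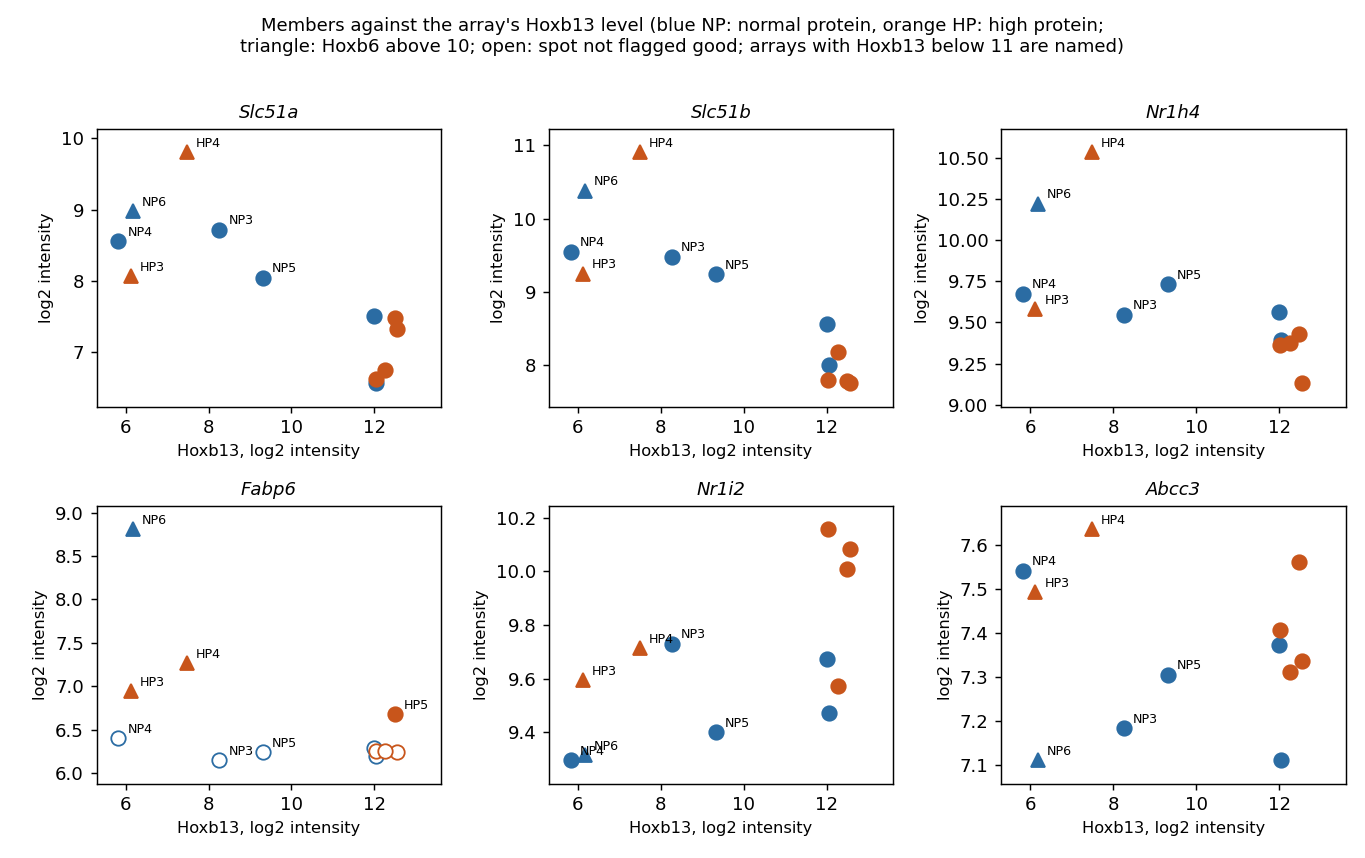
Normalized log2 intensity of 6 of the genes (vertical axis, a separate scale in each panel that does not start at 0) against that of Hoxb13 on the same array (horizontal axis), for normal protein (blue) and high protein (orange) arrays, with triangles for the 3 arrays with Hoxb6 above 10 and open symbols for spots not flagged good. Slc51a lies at or below 7.51 and Slc51b at or below 8.57 on the 6 arrays with Hoxb13 above 11, and both lie higher on the other 6.

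The diet difference of the exporter subunits was small against their spread. Slc51a averaged 7.68 ± 1.17 (SD, n = 6) on high protein and 8.06 ± 0.90 on normal protein. Slc51b averaged 8.61 ± 1.26 (SD, n = 6) and 9.21 ± 0.83. The difference, high minus normal protein, was -0.39 ± 0.532 (SE) for Slc51a, with a limma 95% interval from -1.54 to 0.76, and -0.59 ± 0.544 for Slc51b, from -1.77 to 0.58. The adjusted p was 0.868 and 0.814 in a fit that called 0% of genes in either direction. In it, an unadjusted p under 0.05 was seen in 3.66% of genes higher and in 2.98% lower on high protein. With 1 array left out at a time, the difference ran from -0.81 without HP4 to -0.18 without HP1 for Slc51a and from -1.05 without HP4 to -0.36 without NP6 for Slc51b. With Hoxb13 and Hoxb6 in the fit they were -0.08 and -0.43. Within the 6 arrays with high Hoxb13, a comparison added after seeing the data, they were 0.01 and -0.40, so the direction of Slc51a was not kept there. In bulk RNA, fewer cells that express a gene and less of its RNA per cell cannot be told apart.

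The 2 subunits must pair to reach the membrane, and their levels were compared over the arrays within each range of Hoxb13. On the 6 arrays with Hoxb13 below 11, Pearson's r was 0.95 (two-sided exact permutation p = 0.00417, 0.00833 after Benjamini-Hochberg adjustment over 2 relations) and Spearman's rho was 0.94 (exact p = 0.0167). Without HP4 and NP5, the arrays farthest from the median of Slc51a, r was 0.84. On the 6 arrays with Hoxb13 above 11, r was 0.18 (exact p = 0.747) and rho 0.09 (exact p = 0.919), over a Slc51a range of less than 1 log2 unit. Without NP1 and NP2, r there was -0.53. The difference between the 2 relations was not tested. Both diets were pooled in each, and the split at 11 was set after the levels had been seen. No other pair of genes was tested in this way, so the p-value does not show that the relation is particular to this pair. Over all 12 arrays Slc51a was not among the 3 genes most like Slc51b.

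**Figure D3:**
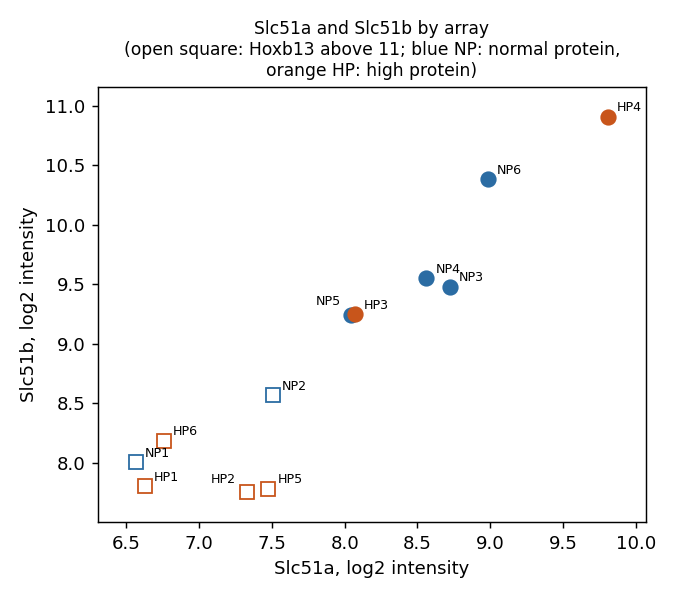
Normalized log2 intensity of Slc51b (vertical axis) against Slc51a (horizontal axis) on each of the 12 arrays, neither axis starting at 0; squares are arrays with Hoxb13 above 11, circles the others, blue normal protein and orange high protein. The circles climb together from NP5 and HP3, near 8.05 and 9.25, to HP4, at 9.81 and 10.91, while the squares sit at the lower left without a clear line.

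Nr1h4, which encodes FXR, was flagged good on all 12 arrays with both of its probes. The brighter probe was used in the fit. It read 9.39 to 10.22 on normal protein, with a median of 9.62, and 9.13 to 10.53 on high protein, with a median of 9.40. Its 2 highest readings were 10.53 on HP4 and 10.22 on NP6, both arrays with high Hoxb6, while the third such array, HP3, read 9.58. On the 6 arrays with high Hoxb13 it read 9.13 to 9.56 and on the others 9.55 to 10.53, which overlap slightly. The second probe read highest on HP4, at 8.37, and on HP3, at 8.12, while NP6, at 7.84, lay below NP3, at 7.89. That probe read 7.31 to 7.86 on the 6 arrays with high Hoxb13 and 7.43 to 8.37 on the others, a wider overlap.

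The diet difference of Nr1h4 was -0.12 ± 0.211 (SE; limma adjusted p = 0.898), and with arrays scaled to their median it had the other sign, at 0.03. Its second probe read 7.31 to 7.89 on normal protein and 7.43 to 8.37 on high protein, and its difference was 0.10 ± 0.173. The 2 probes thus differed in sign, each by less than its standard error. Without NP6 the brighter probe differed by -0.01 and without HP4 by -0.31. The Hoxb6 slope of Nr1h4 was 0.15 ± 0.0675 per log2 unit (limma adjusted p = 0.490) with Hoxb13 and diet in the fit. There 0.0191% of genes were called positive, Hoxb6 itself among them, and 0.0191% negative. Without HP4 the slope of Nr1h4 was 0.0958. For the second probe, in the same kind of fit over 11737 probes, the slope was 0.0989 ± 0.0647 (limma adjusted p = 0.656). With Hoxb6 alone beside diet, the slope of the brighter probe was 0.18 ± 0.0434 (adjusted p = 0.0388), in a fit that called 1.96% of genes positive and 2.79% negative. Slc51b, a gene that FXR is known to switch on, had a Hoxb6 slope of 0.47 ± 0.107 (limma adjusted p = 0.0305) in that fit and of 0.21 ± 0.132 (adjusted p = 0.636) with Hoxb13 included, which was 0.0919 without HP4. Slc51a, which FXR is also known to switch on, had a Hoxb6 slope of 0.10 ± 0.158 (limma adjusted p = 0.873) with Hoxb13 included. Over 22 alternatives the Hoxb6 slope of Slc51a ran from -0.0214 to 0.395, with a smallest limma adjusted p of 0.0902. Nr0b2, the FXR-induced repressor SHP, differed by 0.03 ± 0.254 (SE) between diets, with a limma adjusted p of 0.982. The Hoxb6 slope of Nr0b2 was 0.08 ± 0.117 (limma adjusted p = 0.853) with Hoxb13 included.

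Nr1i2, which encodes PXR, had the largest diet difference relative to its error among the 5 tested members in the fit with diet alone, and Abcc3 had it with Hoxb13 and Hoxb6 in the fit and without NP4. It read 9.30 to 9.73 on normal protein, with a median of 9.44, and 9.57 to 10.16 on high protein, with a median of 9.86. HP1, HP2 and HP5 read 10.16, 10.08 and 10.01, above all normal protein arrays, while HP3, HP4 and HP6 lay within the normal protein range. The means were 9.86 ± 0.26 (SD, n = 6) on high protein and 9.48 ± 0.18 on normal protein. The difference was 0.37 ± 0.124 (SE), with a limma 95% interval from 0.10 to 0.64 and an unadjusted p of 0.0102, and it did not pass the adjustment over all genes (adjusted p = 0.695). The 3.66% of all genes that were higher at an unadjusted p under 0.05 are the background to that value.

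The 3 high readings of Nr1i2 were all on arrays with high Hoxb13. With both Hox genes in the fit the difference was 0.35. Within the 6 arrays with high Hoxb13, 2 on normal and 4 on high protein, the difference was 0.38. That comparison was added after seeing the data, and in it HP6, at 9.57, lay below NP2, at 9.67. Each of the 3 slides held 2 arrays of each diet, and the difference was 0.52, 0.29 and 0.32 within them. With slide as a block, the adjusted p by limma was 0.496, within a range of 0.285 to 0.9997 over the alternatives. All 28 other settings kept the direction, with values from 0.29 to 0.54.

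Abcc3, the basolateral pump MRP3, had a narrow range. It read 7.11 to 7.54 on normal protein, with a median of 7.24, and 7.31 to 7.64 on high protein, with a median of 7.45. HP4 and HP5, at 7.64 and 7.56, were the only arrays on high protein above the highest normal protein reading, and NP1, NP3, NP5 and NP6 lay below the lowest high protein reading. The difference was 0.19 ± 0.0918 (SE), with a limma 95% interval from -0.01 to 0.39, an unadjusted p of 0.0631 and an adjusted p of 0.726. It was 0.29 with Hoxb13 and Hoxb6 in the fit (unadjusted p = 0.0241, limma adjusted p = 0.752), and 0.22, 0.27 and 0.07 within the 3 slides. Neither Hox slope of Abcc3 or of Nr1i2 passed the threshold, and none of these 4 slopes exceeded 0.05 in size.

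**Figure D4:**
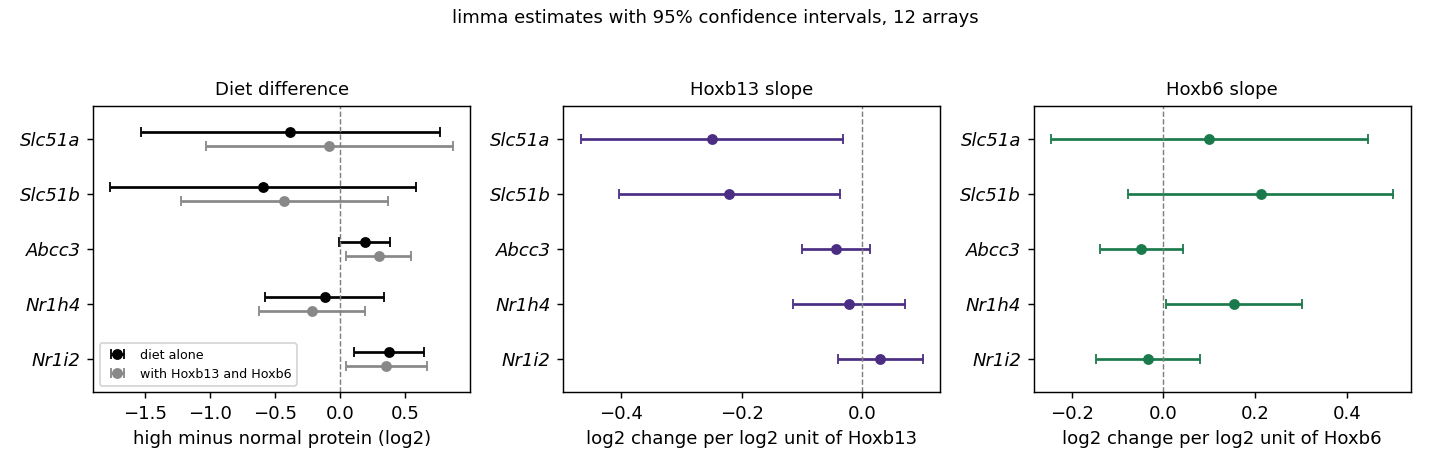
limma estimates with 95% confidence intervals over 12 arrays for the 5 tested genes: diet difference, high minus normal protein (left, log2, black for diet alone and grey with Hoxb13 and Hoxb6 in the fit), and the change per log2 unit of Hoxb13 (middle) and Hoxb6 (right). The dashed line marks 0; before adjustment over all genes, the intervals that leave out 0 are those of Nr1i2 in both fits and of Abcc3 with the Hox terms (left), of Slc51a and Slc51b (middle) and of Nr1h4 (right).

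No tested gene of the wider bile acid pathway passed the test for diet. Of 40 other genes of bile acid synthesis, transport and sensing, 38 were on the array and 19 were tested. Their diet differences were positive in 9 and negative in 10, with a median of -0.0194 against 0.00537 over all genes tested, and 0 passed the limma threshold. An unadjusted p under 0.05 was seen in 2, against 3.66% of all genes higher and 2.98% lower. These were pumps of the family of Abcc3. Abcc1 (MRP1) averaged 8.48 on high protein and 8.06 on normal protein, a difference of 0.42 ± 0.113 (unadjusted p = 0.00255, limma adjusted p = 0.680). Abcc4 (MRP4), which exports bile acids with glutathione, averaged 7.50 and 7.21, a difference of 0.29 ± 0.0878 (unadjusted p = 0.00524, limma adjusted p = 0.680). The third smallest p belonged to Nr5a2 (LRH-1), a receptor that drives bile acid synthesis in liver, with a difference of 0.22 ± 0.110 (limma adjusted p = 0.726). Gpbar1, the membrane receptor for bile acids, was flagged good on too few arrays to be tested.

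Genes known as targets of PXR and CAR were read beside Nr1i2. Of 26 listed, 24 were on the array and 13 were tested. The differences were positive in 10 and negative in 3, with a median of 0.0493. Over all 10451 genes, 5380 were positive and the median was 0.00537. Of the list 0 passed the limma threshold. Aldh1a1, which oxidizes retinaldehyde, averaged 11.49 on high protein and 9.31 on normal protein, a difference of 2.19 ± 0.491 (unadjusted p = 0.000657, limma adjusted p = 0.680). It was the only one of the 13 with an unadjusted p under 0.05, which 694 of all 10451 genes had. Cyp3a62 and Cyp3a9, members of the drug-metabolizing family that PXR is best known for inducing, differed by -0.44 ± 0.265 and 0.17 ± 0.316. Ces2c, a carboxylesterase, differed by -0.37 ± 0.205. For Gsta3, a glutathione transferase, the Hoxb6 slope was 0.38, with a limma adjusted p of 0.0564.

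Fabp2, the intestinal fatty acid binding protein, is a marker of small intestinal absorptive cells, and its readings sorted over the same arrays. It read 11.43 to 12.01 on NP3, NP4, NP5 and NP6 and 11.64 on HP4, 9.74 on HP3, and 8.41 to 9.55 on the 6 arrays with high Hoxb13. Other small intestinal markers did not sort this way. Rbp2 read 8.34 to 8.95 on those 6 arrays and 8.53 to 9.09 on the rest, and Apoa1 and Anpep overlapped too. Slc15a1, flagged good on 3 arrays, went the other way, at 6.19 to 7.65 and 5.73 to 6.03. The mean of the tested markers was 7.52 to 7.98 and 7.66 to 8.92, which overlap. The part of small intestinal cells in the levels of Slc51a and Slc51b was not tested.

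The genes whose pattern over the 12 arrays was most like that of each member were listed by Pearson's r, as a description, since groups of arrays share a slide and arrays differ together in Hoxb13, in Hoxb6 and in signal. For Slc51b they were Rnf130 (r = 0.97), Ppp2r3a (r = 0.97) and Bpifb9a (r = 0.96). For Slc51a they were Ndfip1 (r = 0.96), Nudt4 (r = 0.95) and Fbxl4 (r = 0.94). Nr1h4 was most like Slc17a4 (r = 0.94), Slc51b (r = 0.92) and Ppp2r3a (r = 0.91), so 2 of its 3 nearest genes were the exporter subunit Slc51b and a gene also near that subunit. Nr1i2 was most like Slc37a4 (r = 0.91), the glucose 6-phosphate transporter, Fhdc1 (r = 0.90) and Abca3 (r = 0.88). Abcc3 was most like Atg13 (r = 0.83), Mgst2 (r = 0.83) and Traf1 (r = 0.83).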

How the data were processed

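Per the labels' protocols, total RNA was labelled with Cy3 and hybridized to Agilent whole rat genome arrays, 4 to a slide. Per the file headers, arrays were scanned at 532 nm and measured with GenePix Pro 6.1.0.4. The deposited intensity values are linear and not normalized. The deposited flags are another kind of value, 100 for a good spot and -50 for one not found. The series value table holds log2 values as deposited; the submitters' processing notes name RMA, and its centring is not given in the sources used here. Its IDs are displaced by 1 row (r with scanner values 0.93 to 0.96 when moved, 0.10 to 0.11 as given).

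Of 45220 spots per array, 2343 were controls. Background was corrected with normexp (offset 50), and log2 values of the 42877 gene spots were quantile normalized. A probe was kept where at least 0.5 of its spots were good on at least 6 of 12 arrays. This left 13204 probes, of which 1467 without a name were dropped, and the brightest probe of each gene gave 10451 genes. Names came from the array and from RefSeq accessions of GRCr8 (18355 probes matched). Diets, and slopes on Hoxb13 and Hoxb6, were tested with limma 3.58.1 in R 4.3.3, with Benjamini-Hochberg adjustment over all genes at 0.05. The fit was tested on simulated data, with a random slope term as the only term beside diet. Hoxb13 and Hoxb6 were related to each other and Hoxb13 was not balanced over diet. The simulation did not cover this, so it does not bear on the Hox slopes. The number of arrays limits the precision. No pair of arrays was identical.

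The genes, lists and rules for naming were chosen with earlier results of these data known. All members were named, and of the bile acid list and the list of PXR and CAR targets the 3 genes with the smallest diet p. Nr0b2, Gpbar1, Cyp3a9, Gsta3 and the single cell type markers named were chosen after their values were seen. Likeness was Pearson's r over 12 arrays, the 3 highest for each tested member. Alternatives covered background, scaling, filter, probe choice, slide, replicate block, array weights, Hox terms, the value table and each array left out.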

Additional observations from a re-analysis of the deposited data

Results flagged for a closer look

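In 24 sets of 6 arrays (12 probes in each diet), 1 array stood apart from the rest in 5 by Dixon's test, with a gap to its nearest neighbour above the 95% critical value. Chance gives about 5% of sets. On normal protein, Fabp6 was 8.81 on NP6, with the next array at 6.40. On high protein, the brighter Nr1h4 probe was 10.53 on HP4, with the next at 9.58. The other 3 were spots not flagged good, all on normal protein. Abcc2 was 5.87 on NP3 (next 5.94), Slc10a2 was 6.19 on NP2 (next 5.91), and the first Nr1i3 probe was 6.54 on NP4 (next 6.22).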

How the results depend on the processing

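No setting called a member for diet. Nr1i2 kept its direction in 28 of 28 alternatives, Abcc3 in 28 (0.07 to 0.29) and Slc51b in 28 (-1.05 to -0.27). Nr1h4 turned to 0.0324 and its Hoxb13 slope to 0.00768 with median scaling, which moved the median diet difference of all genes from 0.00537 to 0.0968; relative to that median Nr1h4 was at -0.0643. That scaling gave 1128 genes higher and 78 lower at an unadjusted limma p under 0.05, the 75th percentile 318 and 481, and the quantile setting 383 and 311. Slc51a turned to 0.0112 within the 6 arrays with high Hoxb13. With diet left out, the Hoxb6 slopes turned to 0.0412 for Nr1i2 and 0.0139 for Abcc3, and the latter was 0.00293 with Hoxb6 alone. The cause was not tested.

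The count of genes called for diet was 0 in every setting but slide 3 alone, where it was 1 higher. Positive and negative Hoxb13 slopes were called in 10 and 0 genes, and Hoxb6 slopes in 2 and 2. These became 82 and 61, and 4 and 5, with diet left out, 240 and 178 with Hoxb13 alone, and 205 and 292 with Hoxb6 alone. Positive Hoxb13 calls were 6 without the filter and 4 with spots good on all 12 arrays, where Hoxb6 calls were 0 and 0. That last filter leaves out Hoxb13 and Hoxb6 themselves. In the other settings each counts among the positive calls on its own level. Negative Hoxb6 calls were 4 with offset 16 and 1 with slide as a block. With the 3 arrays of high Hoxb6 left out and Hoxb13 alone beside diet, negative Hoxb13 calls were 5, against the 178 with Hoxb13 alone on all 12 arrays.

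Leaving out each array in turn gave diet differences of -0.313 to -0.0135 for Nr1h4, 0.313 to 0.430 for Nr1i2, 0.151 to 0.241 for Abcc3, -0.811 to -0.176 for Slc51a and -1.05 to -0.356 for Slc51b, and 0 to 0 calls. Hoxb13 calls ran from 7 to 11 positive and 0 to 6 negative, and Hoxb6 calls from 2 to 5 positive and 0 to 11 negative, with the highest negative counts without HP4. Hoxb13 slopes ran from -0.0547 to 0.00429 for Nr1h4, -0.00288 to 0.0478 for Nr1i2, -0.318 to -0.155 for Slc51a and -0.282 to -0.158 for Slc51b, and Hoxb6 slopes from -0.0214 to 0.203 for Slc51a, 0.0919 to 0.280 for Slc51b and 0.0958 to 0.181 for Nr1h4.

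Whether the shared replicate numbers pair the samples was not settled. The correlation of same-numbered deviations ran from -0.11 to 0.40, and 2 of 6 numbers matched best with their own. A replicate block lowered the SE of the diet difference from 0.532 to 0.372 for Slc51a and from 0.544 to 0.402 for Slc51b. With the replicate block, Nr1i2 differed by 0.37 (limma adjusted p = 0.621), 0 genes were called and no member's call changed. Dim probes limit what can be said of Slc10a2, Fgf19, Abcc2, Nr1i3 and Fabp6.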

Other observations

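The deposited value table, with its IDs moved by 1 row, gave diet differences of 0.40 for Nr1i2, 0.28 for Abcc3, -0.59 for Slc51a, -0.71 for Slc51b and -0.13 for Nr1h4, all of the same sign as the scanner values. Enteric neuron and glia markers, of which 4 of 5 were tested, had a mean level of 8.50 on NP6, against 7.09 to 7.77 on the other arrays. One of the 4, S100b, had an SD of 1.85 over the normal protein arrays, against 0.14 for Elavl4, 0.19 for Sox10 and 0.26 for Uchl1.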
